A study of Mus musculus with 8 samples.

Results

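The genes described here are 9 genes of plasminogen activation and coagulation, *Plau*, *Plaur*, *Procr*, *F13a1*, *F10*, *F7*, *F3*, *Thbs1* and *Fn1*, out of 24787 genes listed in the single-cell tables of 8 mouse tumors. The family was picked by its function and by the behavior of 2 members in earlier readings of the same tables, a lower *Plau* level and a higher *Procr* level with medium R848-BPD. Values of *Plau* and *Procr* are therefore given as descriptions with no test, as are all 9 members in medium R848-BPD against free R848 in monocytes and macrophages, the contrast used for the choice. The other 7 members were tested against saline.

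Cells came from MC38 tumors, a mouse colon carcinoma line grown under the skin of 8-week-old female C57BL/6J mice, 1 tumor per mouse, and were profiled with Seq-Well, a nanowell method that counts mRNA molecules by unique molecular identifiers (UMIs) at the 3′ end of transcripts. All tumors were taken 24 hours after an injection of saline (n = 3 tumors), of free R848 (n = 3) or of the medium R848-BPD (n = 2). R848 (resiquimod) is a small agonist of TLR7 and TLR8, and the BPD is a bottlebrush prodrug from which R848 is cleaved, "medium" naming its release rate among related prodrugs. The dose given to these animals is not stated in the labels. CD45+ and CD45- cells of each tumor were separated on magnetic columns and loaded at 9 to 1, so the loading fixed the ratio of the CD45+ to the CD45- cells, and shares of cell classes are not given as results.

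Plasmin, the protease that dissolves fibrin, is made from plasminogen by urokinase, the product of *Plau*, which acts at the cell surface when held by its receptor, the product of *Plaur*. Coagulation outside a vessel starts when tissue factor (*F3*) binds factor VII (*F7*) and activates factor X (*F10*), which leads to thrombin and fibrin; factor XIII (*F13a1*) then crosslinks the fibrin. The endothelial protein C receptor (*Procr*) presents protein C for activation and so limits thrombin formation. Thrombospondin 1 (*Thbs1*) and fibronectin (*Fn1*) are matrix proteins that enter clots and bind fibrin and integrins. Tumor macrophages are a known source of several of these proteins.

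Each tumor gave 5867590 to 12422614 UMIs, and 9531 cells were kept, of which 5329 formed the monocyte/macrophage-like class. *C1qa*, which encodes a complement subunit made by macrophages, stood at 2969 CPM (UMIs of the gene per 1000000 UMIs of the sum) in this class against 121 CPM in the other classes together, and *Adgre1* (F4/80) at 486 against 23.3 CPM. Clusters were drawn without the 9 members, and different clusters held most of the class after different treatments. A cluster with *Ccl8* and *Mmp12* among its leading genes held 18 cells after saline, 42 after free R848 and 444 after medium R848-BPD, and the monocyte-like cluster held 418, 280 and 5. Saline replicate 2 stood apart from the other saline tumors, with 32 monocyte-like cells against 210 and 176, and the log2 fold changes of the tested members against saline in the whole class are given with and without it. In all, 23 barcodes occurred in more than 1 library and accounted for 6 cells of the monocyte/macrophage-like class.

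Promoter windows from 250 bases before to 50 bases after the annotated start were read from RefSeq (GRCm38.p6) for the 6 members with an entry, to show the letters at the starts of *Procr* and *Plaur*, whose levels after medium R848-BPD lay on opposite sides of saline, and of the other members. The letters TGANTCA, the core of the AP-1 motif, occurred on the gene strand or its complement in 3 of the 6 members, *Procr*, *Plaur* and *F3*, and in 7.81% of 32851 windows of the same length. The matches are in capitals below. They lie 154 to 148 bases before the start of *Procr* (chr2:155750967-155751266, + strand), 69 to 63 bases before the start of *Plaur* (chr7:24462233-24462532, + strand), and at 146 to 140 and 135 to 129 bases before the start of *F3* (chr3:121723287-121723586, + strand). Distances are from the RefSeq start, which for *Procr* lies downstream of the start in the GENCODE annotation used for the gene position below.
Procr: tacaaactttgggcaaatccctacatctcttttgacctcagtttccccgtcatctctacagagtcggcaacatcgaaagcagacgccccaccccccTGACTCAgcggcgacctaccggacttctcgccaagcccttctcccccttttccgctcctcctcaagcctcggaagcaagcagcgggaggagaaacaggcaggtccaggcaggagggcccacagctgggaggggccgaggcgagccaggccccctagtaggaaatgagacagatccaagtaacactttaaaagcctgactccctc
Plaur: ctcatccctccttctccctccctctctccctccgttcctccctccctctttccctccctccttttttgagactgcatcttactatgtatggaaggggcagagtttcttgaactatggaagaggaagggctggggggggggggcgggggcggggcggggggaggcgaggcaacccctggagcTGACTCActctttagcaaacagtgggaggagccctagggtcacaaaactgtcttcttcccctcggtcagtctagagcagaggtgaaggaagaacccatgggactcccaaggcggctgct
F3: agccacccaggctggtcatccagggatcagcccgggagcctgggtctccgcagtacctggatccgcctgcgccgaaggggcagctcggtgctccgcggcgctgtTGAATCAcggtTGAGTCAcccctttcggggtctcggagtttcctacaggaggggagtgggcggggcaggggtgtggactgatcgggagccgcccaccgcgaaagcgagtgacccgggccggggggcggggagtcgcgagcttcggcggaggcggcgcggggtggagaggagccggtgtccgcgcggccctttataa
*F7*, *F10* and *F13a1*, the last with 2 windows, had no match to these letters. The interferon-stimulated response element, searched on both strands as GAAANNGAAA, was found in 3.44% of all windows and the NF-κB motif in 8.46%, and in none of the 6 members searched. *Plau*, *Thbs1* and *Fn1* had no entry in the set of promoter windows used here, which does not mean that RefSeq lacks them. *Procr* and *Plaur* carry the same 7 letters, TGACTCA. A match describes letters in the window and not a bound site.

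In the monocyte/macrophage-like class, the urokinase gene *Plau* lay lowest after medium R848-BPD and its receptor gene *Plaur* was lower there than after saline, while *Procr*, *F13a1* and *F7* lay highest in both medium R848-BPD tumors. *Fn1* lay below all saline tumors after medium R848-BPD, and *F10* and *Thbs1* overlapped saline. With edgeR's quasi-likelihood test on UMIs summed per tumor (Benjamini-Hochberg adjusted over 10569 genes, threshold 0.05), 1 of the 7 tested members was called in medium R848-BPD against saline, *Plaur*, beside 7.3% of all genes. None of the 7 was called in free R848 against saline, beside 0.0189% of all genes. In this contrast 2 had an unadjusted p under 0.05, beside 1203 of the 10569 genes. DESeq2 also called 0, beside 39 of all genes. Of the 7 members, 4 had an unadjusted p under 0.05 in medium R848-BPD against saline, beside 2623 of the 10569 genes. DESeq2 called 2 of the 7, *Plaur* and *Fn1*, beside 963 of all genes. All 171 genes called between medium R848-BPD and free R848 made up 1.62% of those tested, a contrast in which the members were not tested. Leaving out saline replicate 2 raised the calls among the 7 members to 3 in free R848 against saline (*Fn1*, *F3* and *Plaur*, all lower, beside 1.31% of all genes) and to 4 in medium R848-BPD against saline (*Plaur*, *Fn1* and *F3* lower, *F7* higher, beside 12% of all genes).

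**Figure D1:**
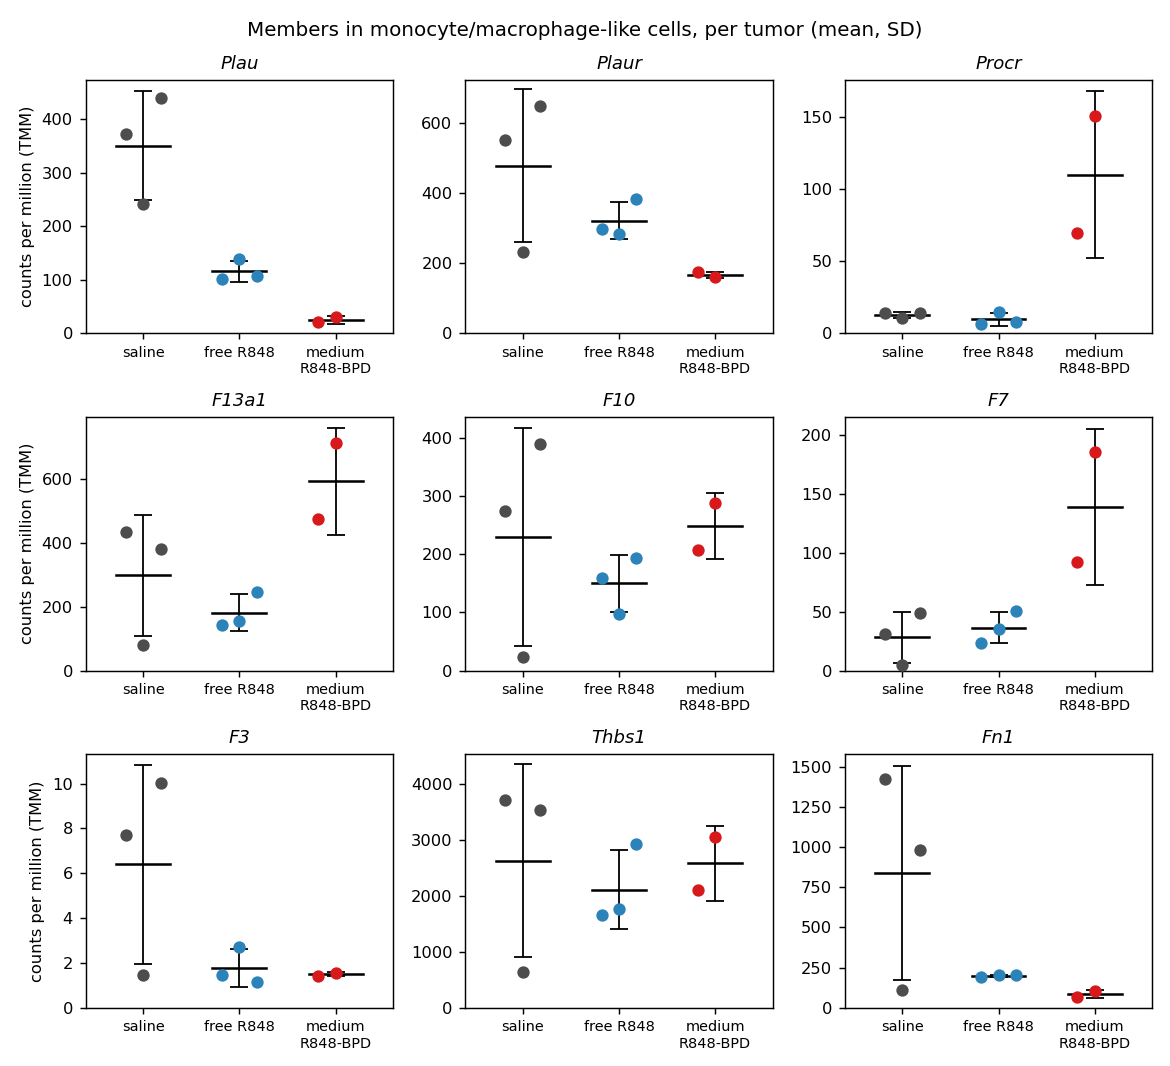
Normalized level (TMM-scaled CPM, vertical axes, each starting at 0) of the 9 members in monocyte/macrophage-like cells, 1 point per tumor for saline, free R848 and medium R848-BPD, with the group mean and SD. *Plau* lies in separate ranges for the 3 treatments, from 439 CPM in a saline tumor down to 20.5 CPM in a medium R848-BPD tumor, and saline replicate 2 is the lowest saline tumor for every member.

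*Plau* (chr14:20836660-20843385, + strand) encodes urokinase. Its level, as CPM scaled by TMM (a normalization that evens out composition between libraries), was 371, 241 and 439 in the saline tumors, 102, 139 and 108 after free R848, and 20.5 and 30.1 after medium R848-BPD. The 3 groups did not overlap, and the means of 350.5 ± 101 (SD, n = 3), 116 ± 19.7 (n = 3) and 25.3 ± 6.76 CPM (n = 2) put saline 3.02-fold above free R848 and 13.8-fold above medium R848-BPD. These levels rest on 4334, 1311 and 192 UMIs. The fitted log2 fold change was -1.59 ± 0.24 (SE) for free R848 and -3.81 ± 0.32 for medium R848-BPD against saline, and -2.22 ± 0.30 for medium R848-BPD against free R848. Leaving out any 1 tumor kept the second of these between -4.09 and -3.54.

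Within the clusters given here *Plau* lay in the same order. In the *Ccl12*, *C1qa* and *C1qc*-led cluster of 816 cells, it was 502, 289 and 619.9 CPM after saline, 114, 150.1 and 125 after free R848, and 8.36 and 6.22 after medium R848-BPD. In the *C1qc*, *C1qa* and *C1qb*-led cluster of 568 cells, it was 404, 290.2 and 429 CPM, then 96.3, 157 and 209.6, then 26.3 and 38.6. In both clusters each medium R848-BPD tumor lay below each free R848 tumor, and each of these below each saline tumor. With every cell thinned to 1000 UMIs, *Plau* was seen in 23.7% ± 3.52 (SD, n = 3 tumors) of the monocyte/macrophage-like cells after saline, 8.99% ± 1.73 after free R848 and 1.58% ± 0.815 after medium R848-BPD, against 53.3%, 32.6% and 9.43% without thinning. The thinned share among T-like and NK-like cells, set beside it as a background, was 2.38%, 0.541% and 0.147%. Whether these cells express *Plau* themselves was not tested. After saline, 10 of the 14 such cells with a *Plau* UMI came from saline replicate 2. Unthinned median depths were 4855, 5134 and 5292 UMIs per monocyte/macrophage-like cell, 4378, 4905 and 5414 per T-like cell, and 5115.5, 6553 and 7013 per NK-like cell. Thinning left out 23, 7 and 1 monocyte/macrophage-like cells that were too shallow. Of all *Plau* UMIs, 92.9% lay in the monocyte/macrophage-like class. This share, like the UMI shares of the other members below, depends on the loading of CD45+ and CD45- cells and on the UMIs per cell.

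*Plaur* (chr7:24462484-24475968, + strand) encodes the urokinase receptor. Its level was 552, 233 and 649 CPM after saline, 297, 284 and 383 after free R848, and 174 and 161 after medium R848-BPD. Both medium R848-BPD tumors lay below every other tumor, and the free R848 tumors lay within the saline range. *Plaur* fell by 1.51 on the log2 scale (SE 0.38, adjusted p = 0.0450, edgeR) in medium R848-BPD against saline, and its log2 fold change in free R848 against saline was -0.57 (SE 0.32, adjusted p = 0.527). The call was lost when any tumor other than saline replicate 2 was left out (adjusted p = 0.0734 to 0.277), with log2 fold changes of -1.57 to -1.22, and without saline replicate 2 it was -1.84 (adjusted p = 0.000349). Without that tumor the difference of free R848 from saline was also called, at -0.90 (adjusted p = 0.03).

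*Plaur* was also lower in the DC-like class. There it was 255, 335 and 252 CPM after saline, 100.02, 119 and 172 after free R848, and 55.3 and 66.0 after medium R848-BPD, with no overlap between the 3 groups. It fell by 1.06 (SE 0.23, adjusted p = 0.0397) after free R848 and by 2.20 (SE 0.28, adjusted p = 0.000275, edgeR) after medium R848-BPD, against saline. These were the calls among the 5 testable members in DC-like cells, beside 1.53% and 14.4% of all genes called. Between medium R848-BPD and free R848 the difference in DC-like cells was -1.14 (adjusted p = 0.0763, edgeR). There 0 of 5 members were called beside 1.25% of genes, and 2 had an unadjusted p under 0.05 beside 693 of 5899 genes. The DC-like cells came from different clusters by treatment. The cluster led by *Kmo*, *H2-DMb2* and *Flt3* held 225, 80 and 25 of them after saline, free R848 and medium R848-BPD, and the one led by *Ccl22*, *Il4i1* and *Ccr7* held 67, 112 and 153. Within the first, *Plaur* was 254, 401 and 315 CPM of the cluster's own UMIs after saline, 235, 197 and 335 after free R848, which overlapped saline, and 53.8 in the 1 medium R848-BPD tumor with at least 10 cells. Within the second it was 225 and 58.9 in 2 saline tumors, 67.5, 69.1 and 15.8 after free R848, and 52.3 and 37.6 after medium R848-BPD, so free R848 overlapped saline and medium R848-BPD lay below it. The part of the cluster makeup in the change of the whole class was not tested. In MC38-like cells *Plaur* stood between 56.7 and 91.5 CPM in all 8 tumors. Saline overlapped both treatments, and the medium R848-BPD tumors (64.5 and 66.2 CPM) lay below the free R848 tumors (75.9 to 87.8 CPM).

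Within the monocyte/macrophage-like class, a mixed group of 616 cells, which carries both monocyte and macrophage markers, had *Plaur* at 577, 876 and 739.8 CPM after saline, 309.9, 298 and 418 after free R848, and 193 and 178 after medium R848-BPD. Here *Plaur* fell in both contrasts against saline, by 1.07 (adjusted p = 0.0361) and by 1.93 (adjusted p = 7.5e-05, edgeR). *Fn1* fell there too, by 2.15 (adjusted p = 0.0165) and by 3.40 (adjusted p = 7.5e-05). These were 2 of 6 testable members in each contrast, beside 0.592% and 8.97% of all genes. Saline replicate 2 gave 10 of the cells in this group. The group joins 2 clusters that hold different treatments: the *Ccl12* and *Ccl7* one held 100, 97 and 12 cells after saline, free R848 and medium R848-BPD, and the *Saa3* and *Slc11a1* one 2, 51 and 354, so the contrast of medium R848-BPD with saline sets 1 cluster against the other. Within the first, *Plaur* was 526, 832 and 669 CPM of its own UMIs after saline and 325, 317 and 399 after free R848, and *Fn1* was 997, 319.9 and 309 against 134, 213 and 143, with no overlap for either gene. Within the second, *Plaur* was 267, 209.7 and 300.03 CPM after free R848 and 176 and 152 after medium R848-BPD, again with no overlap. In the macrophage-like cells alone, 0 of 7 members were called by edgeR in either contrast, beside 0.0195% and 7.18% of all genes. At an unadjusted p under 0.05 there were 2 and 3 members, beside 1125 and 2579 of 10256 genes. The log2 fold change of *Plaur* there was -1.33 (SE 0.37, adjusted p = 0.0611, edgeR) in medium R848-BPD against saline.

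*Procr* (chr2:155751117-155755471, + strand) encodes the endothelial protein C receptor. Its level in the monocyte/macrophage-like class was 14.2, 10.5 and 13.9 CPM after saline, 6.25, 14.8 and 8.18 after free R848, and 69.3 and 151 after medium R848-BPD. Saline and free R848 overlapped, and both medium R848-BPD tumors lay above all 6 others, although they differed from each other by more than the whole range of the rest. The group means were 12.9 ± 2.07 (SD, n = 3), 9.73 ± 4.47 (n = 3) and 109.9 ± 57.4 CPM (n = 2), 8.55-fold above saline and 11.3-fold above free R848. The log2 fold change of medium R848-BPD was 3.10 ± 0.38 (SE) against saline and 3.45 ± 0.39 against free R848, and without any 1 tumor it stayed between 2.45 and 3.56 and between 2.82 and 3.93.

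Within the class, *Procr* was uneven. In the *Ccl8* and *Mmp12* cluster, which held most of its cells after medium R848-BPD, *Procr* stood at 201 and 267 CPM in the medium R848-BPD tumors and at 118 and 58.2 CPM in the 2 free R848 tumors with at least 10 cells. In the *Saa3* and *Slc11a1* cluster it was 12.4, 34.9 and 115 CPM after free R848 and 12.7 and 48.7 after medium R848-BPD, so these groups overlapped. In every other cluster with at least 10 cells it was at most 21.5 CPM after medium R848-BPD. Saline gave no tumor with 10 cells of the first of these clusters. Thinned to 1000 UMIs, 0.760% of cells held a *Procr* UMI after saline, 0.761% after free R848 and 6.73% ± 3.23 after medium R848-BPD (3.99%, 3.57% and 18.2% unthinned). The share in T-like and NK-like cells was 0.632%, 0.186% and 0.442%, so the saline level is read as near background. Endothelial cells are the textbook site of this receptor, and 6 endothelial markers were looked for. They summed to 60.5 to 99.6 CPM in the class after saline, 93.7 to 119 after free R848 and 103 to 111 after medium R848-BPD. *Pecam1* and *Kdr* made up nearly all of these sums. *Pecam1* was 13.3, 36.5 and 11.9 CPM after saline and 81.7 and 68.7 after medium R848-BPD. *Kdr* was 26.1 and 32.9 CPM after medium R848-BPD, within its saline range. *Cdh5*, *Egfl7*, *Emcn* and *Cldn5* reached at most 3.76, 2.26, 0.741 and 0.376 CPM in any tumor. The part of endothelial RNA in the *Procr* level was not tested.

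**Figure D2:**
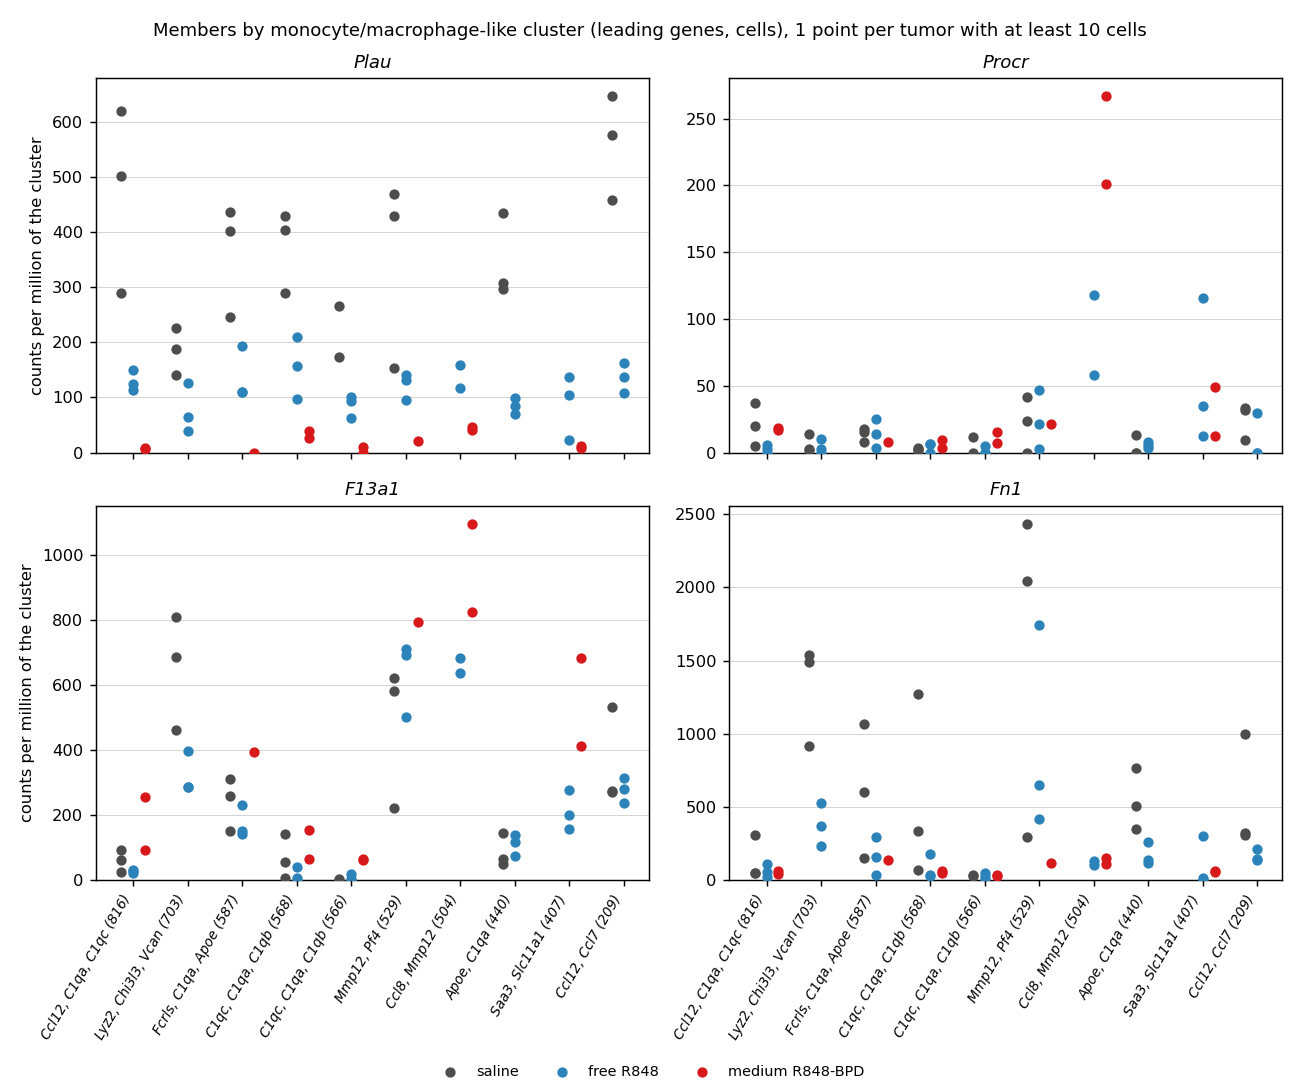
Level (CPM of the cluster's own UMIs, vertical axes) of *Plau*, *Procr*, *F13a1* and *Fn1* in the 10 clusters of the monocyte/macrophage-like class, named by genes among their leaders with cell numbers, 1 point per tumor with at least 10 cells in the cluster. *Plau* is ordered saline, free R848, medium R848-BPD in the cluster of 816 cells (619.9 down to 6.22 CPM), while *Procr* after medium R848-BPD reaches 267 CPM in 1 cluster and at most 48.7 CPM in the rest.

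Outside the monocyte/macrophage-like class, *Procr* was found in MC38-like cells at 49.0, 31.0 and 52.0 CPM after saline, 34.4, 38.6 and 45.3 after free R848, and 50.1 and 60.9 after medium R848-BPD. Saline overlapped both treatments, and the medium R848-BPD tumors lay above the free R848 tumors (means 55.5 and 39.4 CPM). The carcinoma cells held 40.4% of all *Procr* UMIs and the monocyte/macrophage-like class 41.4%, shares that depend on the loading and on the UMIs per cell. In DC-like cells it was 48.3, 117 and 37.7 CPM, then 173, 51.9 and 36.2, then 151 and 191. The medium R848-BPD tumors lay above all saline tumors there and overlapped free R848. The 2 tumors with enough fibroblast-like cells, both after medium R848-BPD, stood at 108 and 144 CPM of their own UMIs.

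Of the coagulation factor genes, *F13a1* and *F7* lay highest in both medium R848-BPD tumors, and *F10* and *F3* overlapped saline. *F13a1* (chr13:36867178-37050244, - strand), the A subunit of factor XIII, stood at 434, 80.3 and 381 CPM after saline, 141, 157 and 247 after free R848, and 475 and 712 after medium R848-BPD. Both medium R848-BPD tumors were above all others, yet the log2 fold change against saline was 1.00 (SE 0.56, adjusted p = 0.312, edgeR) and that of free R848 was -0.71 (SE 0.52, adjusted p = 0.632). Without saline replicate 2 they were 0.54 (adjusted p = 0.234) and -1.17 (adjusted p = 0.0532). Between medium R848-BPD and free R848 the difference was 1.71 ± 0.57 (SE), given with no test. In the monocyte-like cluster *F13a1* fell after free R848, from 746, 869 and 511 to 390.3, 288 and 299 CPM (log2 fold change -1.08, SE 0.20, adjusted p = 0.00907). In neutrophil-like cells, which reached 10 cells per tumor only after the 2 treatments, it rose from 135, 34.3 and 53.4 CPM with free R848 to 459 and 277 CPM with medium R848-BPD (log2 fold change 2.29, SE 0.49, adjusted p = 0.0367). That was 1 of 4 members testable there, beside 0.856% of all genes. In the same contrast the mean *F13a1* level of the medium R848-BPD tumors was 4.57-fold that of the free R848 tumors in T-like cells (158 and 34.6 CPM), and it stood at 65.3 and 10.9 CPM in DC-like cells. Neither was called, and the part of *F13a1* RNA from other cells in the neutrophil-like value was not tested.

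*F7* (chr8:13026034-13035809, + strand), the factor that tissue factor binds, stood at 30.9, 5.09 and 48.5 CPM after saline, 23.8, 35.2 and 50.6 after free R848, and 92.0 and 186 after medium R848-BPD. The medium R848-BPD tumors lay above the other 6, and the mean was 4.94-fold that of saline. The log2 fold change against saline was 2.38 (SE 0.68, adjusted p = 0.0679, edgeR), which missed the threshold. Without saline replicate 2 it was 1.81 (adjusted p = 0.0152) and without saline replicate 3 it was 3.02 (adjusted p = 0.0428), both of which passed. Each of the other 6 fits without 1 tumor missed the threshold, with the lowest value, 1.79 (adjusted p = 0.378), without medium R848-BPD replicate 2. For free R848 it was 0.45 (SE 0.65, adjusted p = 0.823) and turned to -0.13 without saline replicate 2. Thinned to 1000 UMIs, 2.58%, 3.16% and 10.2% of cells held an *F7* UMI, against 6.49%, 10.6% and 26.5% unthinned. In T-like and NK-like cells *F7* was seen after saline in 0 of 674 thinned cells, an upper limit of 0.445%, and in 0.541% and 0.643% after the treatments.

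*F10* (chr8:13037308-13056676, + strand), the next gene on the chromosome after *F7*, encodes the factor that the *F7* product activates. It stood at 274, 23.4 and 389.8 CPM after saline, 158, 97.7 and 194 after free R848, and 208 and 289 after medium R848-BPD. The saline tumors spanned all others, and the log2 fold changes against saline were -0.60 (SE 0.73, adjusted p = 0.789) and 0.12 (SE 0.81, adjusted p = 0.950, edgeR), which became -1.15 (adjusted p = 0.0720) and -0.42 (adjusted p = 0.399) without saline replicate 2. The mean with medium R848-BPD was 1.65-fold that with free R848 for *F10* and 3.80-fold for its neighbor *F7*. Neutrophil-like cells held *F10* at 378 to 818 CPM of their own UMIs after free R848, above the 100.2 to 187 CPM of the monocyte/macrophage-like class.

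*F3* (chr3:121723537-121735048, + strand), tissue factor, had few UMIs in the monocyte/macrophage-like class, at 7.72, 1.46 and 10.01 CPM after saline, 1.44, 2.73 and 1.17 after free R848, and 1.43 and 1.56 after medium R848-BPD. The saline tumors overlapped the treated ones only through saline replicate 2, and 68, 21 and 12 UMIs lie behind the 3 groups. The log2 fold changes against saline were -1.67 (SE 0.69, adjusted p = 0.415) and -1.99 (SE 0.82, adjusted p = 0.174, edgeR), and without saline replicate 2 they were -2.21 (adjusted p = 0.0321) and -2.54 (adjusted p = 0.00689). Of all *F3* UMIs, 80.8% lay in MC38-like cells, at 56.7, 29.3 and 74.8 CPM after saline, 32.7, 40.0 and 28.8 after free R848, and 51.8 and 26.6 after medium R848-BPD. The groups overlapped there. In the medium R848-BPD tumors, fibroblast-like cells held *F3* at 159 and 194 CPM of their own UMIs, above the 25.6 and 52.0 CPM of the MC38-like cells on the same scale.

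*Fn1* (chr1:71585520-71653200, - strand) encodes fibronectin. Its level in the monocyte/macrophage-like class was 1422, 112 and 984 CPM after saline, 192, 204 and 203 after free R848, and 68.2 and 106 after medium R848-BPD. The medium R848-BPD tumors lay below the other 6, but saline replicate 2 lay just above them and below the free R848 tumors. The log2 fold change was -2.07 (SE 0.68, adjusted p = 0.319) for free R848 and -3.28 (SE 0.85, adjusted p = 0.0517, edgeR) for medium R848-BPD against saline. Without saline replicate 2 both passed, at -2.59 (adjusted p = 0.00169) and -3.81 (adjusted p = 4.3e-05). In the monocyte-like cluster *Fn1* fell after free R848 from 1674, 1595 and 1014 to 512, 371 and 241 CPM (log2 fold change -1.91, SE 0.24, adjusted p = 0.00100), and there saline replicate 2 lay within the other saline tumors.

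MC38-like cells held more of the *Fn1* UMIs (61.6%) than the monocyte/macrophage-like class (31.6%). Their level was 1163, 981 and 1538 CPM after saline, 749, 1189 and 887 after free R848, and 1152 and 1005 after medium R848-BPD, with overlapping groups. The change of *Fn1* in medium R848-BPD against saline differed between MC38-like and monocyte/macrophage-like cells by 2.57 on the log2 scale (SE 0.75), but the class-by-treatment test with tumor as a block did not pass (adjusted p = 0.107, edgeR). That was the smallest adjusted p of 28 such tests of members, in which 0 were called and 6 had an unadjusted p under 0.05. How many of all genes had such an unadjusted p was not counted. Among all genes this test called 0% and 2.13% for MC38-like cells and 0.105% and 3.58% for DC-like cells, in free R848 and medium R848-BPD against saline.

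*Thbs1* (chr2:118111876-118127133, + strand) encodes thrombospondin 1. It stood at 3714, 644 and 3523 CPM after saline, 1649.7, 1764 and 2919.7 after free R848, and 2109 and 3048 after medium R848-BPD. The groups overlapped, and the log2 fold changes against saline were -0.32 (SE 0.54, adjusted p = 0.851) and -0.03 (SE 0.60, adjusted p = 0.987, edgeR), or -0.78 (adjusted p = 0.161) and -0.49 (adjusted p = 0.295) without saline replicate 2. The monocyte-like cluster gave another picture: *Thbs1* fell there from 10556, 8536 and 12179.8 CPM after saline to 4140.4, 4997 and 4321 CPM after free R848 (log2 fold change -1.22, SE 0.15, adjusted p = 0.000975). In macrophage-like cells alone it stood at 1927, 482 and 1754 CPM, then 865, 1417 and 2312, then 2083 and 3405, with a log2 fold change of 0.98 (adjusted p = 0.306) in medium R848-BPD against saline. Medium R848-BPD left 2 and 3 monocyte-like cells per tumor, so no level is given for them.

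**Figure D3:**
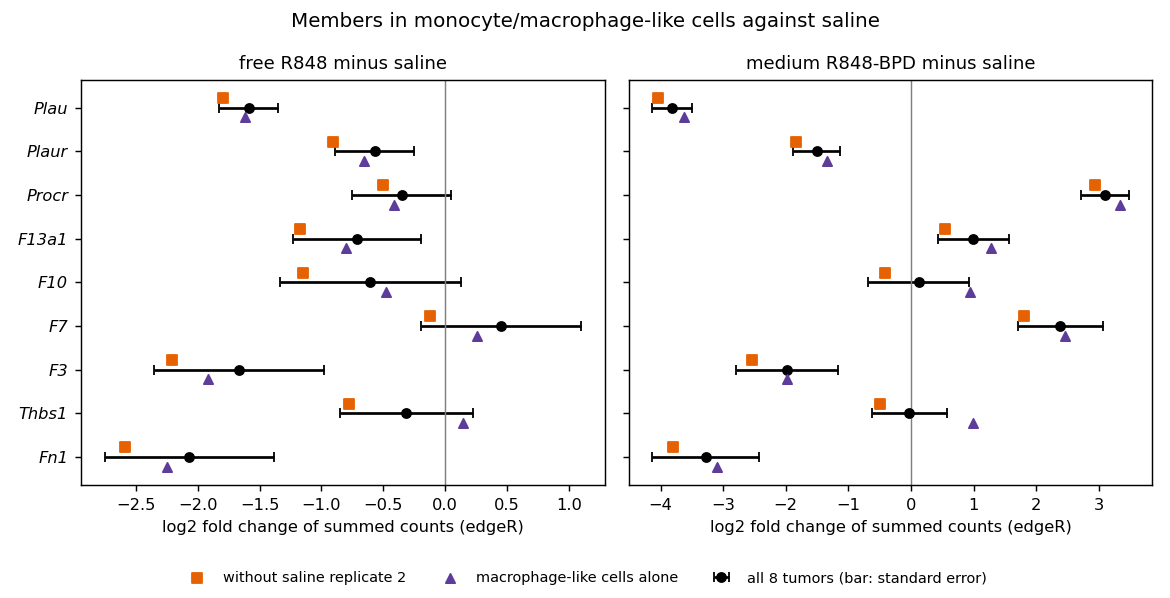
Log2 fold change against saline (horizontal axes) of the 9 members in free R848 and in medium R848-BPD. Black points with bars give all 8 tumors with the standard error, orange squares the fit without saline replicate 2 and purple triangles macrophage-like cells alone; *Fn1* in medium R848-BPD sits at -3.28, -3.81 and -3.09, while *Thbs1* moves from -0.03 to -0.49 and 0.98.

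In the monocyte-like cluster several members were lower after free R848. Of 5 testable members, 3 were called, *Thbs1*, *Fn1* and *F13a1*, all lower, beside 2.15% of all genes. *Plaur* stood at 939, 824 and 970.1 CPM after saline and 653, 641 and 659 after free R848 (log2 fold change -0.49, adjusted p = 0.0824), and *F10* at 924, 446 and 1006 against 519, 419.6 and 493 CPM (-0.77, adjusted p = 0.0841, edgeR). *Plau*, given as a description, stood at 205, 151 and 249 against 123, 65.9 and 40.2 CPM. For all of these except *F10* every free R848 tumor lay below every saline tumor. How many of all genes separate so in this cluster was not counted, so the separation is not read as particular to the members.

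In the remaining classes edgeR called no tested member. In MC38-like cells 0 of 6 were called in free R848 against saline, medium R848-BPD against saline and medium R848-BPD against free R848. The shares of all genes called were 0%, 0.843% and 0.296%. In these contrasts 0, 0 and 1 members had an unadjusted p under 0.05, beside 940, 1543 and 1532 of 10793 genes. In NK-like cells 0 of 4 were called, beside 0%, 0.926% and 0.258% of genes. Here 2, 2 and 0 members had an unadjusted p under 0.05, beside 390, 851 and 731 of 8532 genes. In T-like cells 0 of 5 were called, beside 0%, 0.0142% and 0.0142% of genes. Here 2, 1 and 2 members had an unadjusted p under 0.05, beside 421, 430 and 511 of 7025 genes. The lowest adjusted p in T-like cells was that of *Fn1* in medium R848-BPD against saline (log2 fold change -3.54, adjusted p = 0.0636, edgeR). It stood at 145, 117 and 230.1 CPM after saline and at 16.2 and 6.75 CPM after medium R848-BPD. The part of *Fn1* RNA from other cells in these values was not tested. DESeq2 was not run in these classes.

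**Figure D4:**
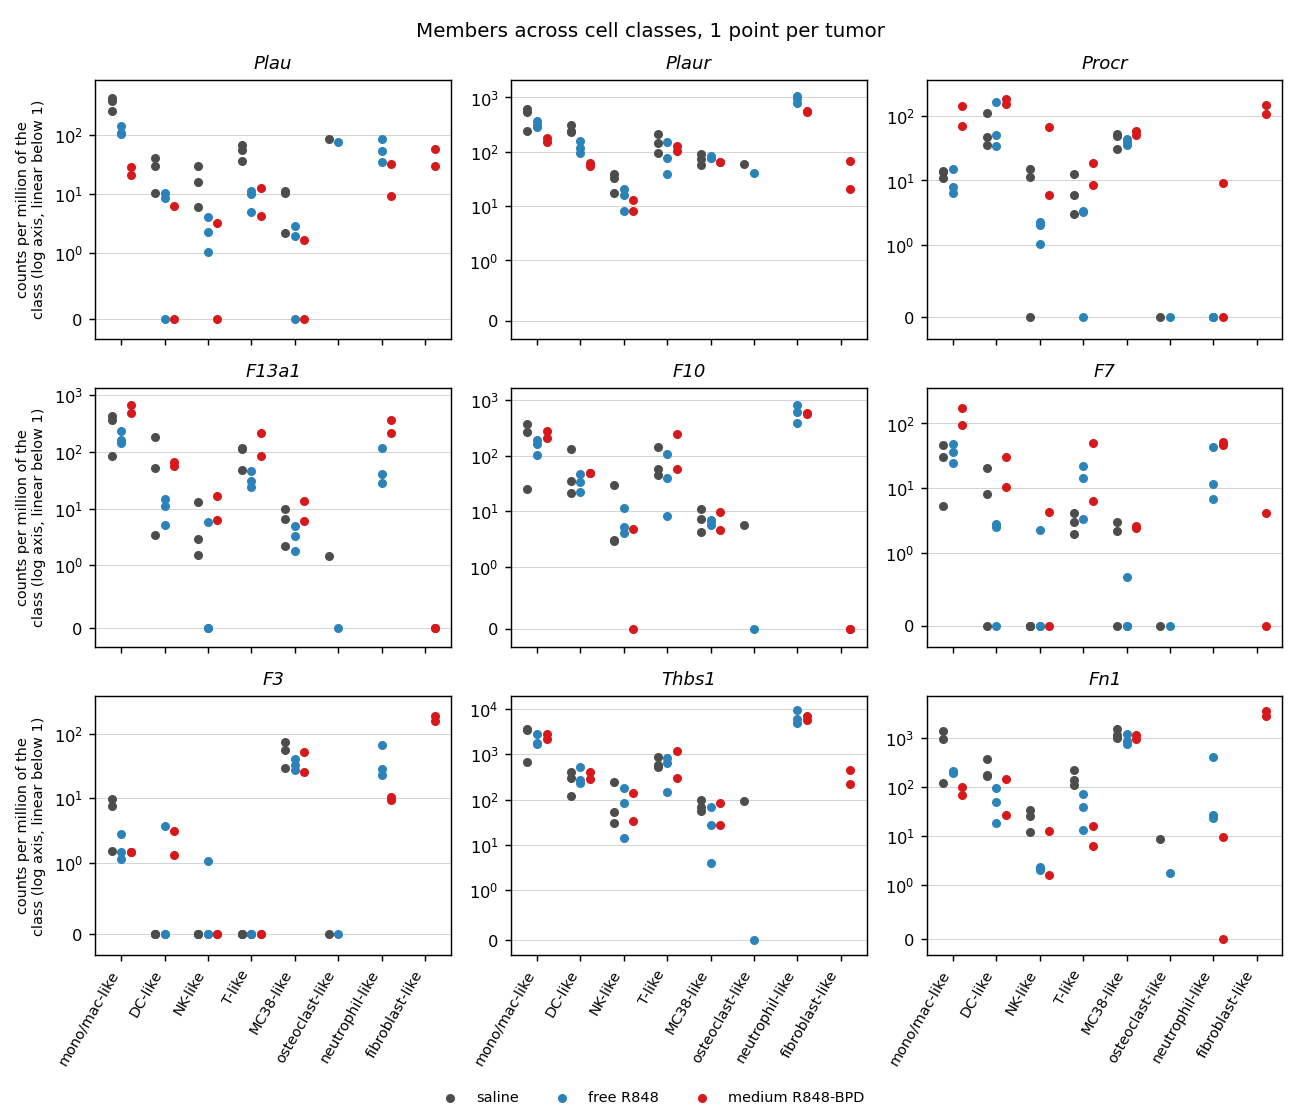
Level (CPM of the class's own UMIs, vertical axes, logarithmic above 1 CPM and linear below) of the 9 members in the 8 cell classes, 1 point per tumor with at least 10 cells of the class, colored by treatment. *F3* reaches its highest level, 194 CPM, in fibroblast-like cells, and *Thbs1* and *F10* reach theirs, 9627 and 818 CPM, in neutrophil-like cells.

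The members differed in the classes that held their UMIs, in shares that depend on the loading of CD45+ and CD45- cells and on the UMIs per cell. *Plau*, *F13a1*, *F10*, *F7* and *Thbs1* had 86.2% to 93.2% of their UMIs in the monocyte/macrophage-like class, while *F3*, *Fn1* and *Procr* had 9.47%, 31.6% and 41.4% there and *Plaur* 76.0%. *Thbs1* after free R848 was 4999 to 9627 CPM in neutrophil-like cells, above the range of the monocyte/macrophage-like class, and *Plaur* stood at 783 to 1061 CPM there after free R848 and at 539 to 567 after medium R848-BPD. *F3* after free R848 was 23.0 to 67.6 CPM in neutrophil-like cells and 28.0 to 40.3 in MC38-like cells, which overlapped. *Fn1* after saline was 979 to 1541 CPM in MC38-like cells and 118 to 1403 CPM in the monocyte/macrophage-like class, so these neighbors in the order overlapped. Fibroblast-like cells of the medium R848-BPD tumors held *Fn1* at 3559 and 2839 CPM.

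Shares of cells with a UMI were compared at equal depth. Thinned to 1000 UMIs, *Plaur* was seen in 35.6%, 25.4% and 14.0% of monocyte/macrophage-like cells after saline, free R848 and medium R848-BPD (72.7%, 64.6% and 45.2% unthinned), against 5.68%, 4.35% and 5.58% of T-like and NK-like cells. *Fn1* was seen in 28.2%, 12.5% and 5.35% (46.1%, 28.2% and 17.8% unthinned), against 3.06%, 1.11% and 1.14%. *F13a1* was seen in 16.6%, 13.5% and 31.2% (28.5%, 26.7% and 52.9% unthinned), against 1.72%, 1.39% and 4.79%. For *Plaur*, *Fn1*, *F13a1* and *F7* the medium R848-BPD tumors did not overlap the saline tumors. The two-sided exact permutation p was 0.2 there, the smallest that 2 against 3 tumors allow. How many of all genes separate in this way was not counted, so nothing particular to the members is read from it. *Thbs1* was seen in 48.9%, 53.5% and 51.6%, with an exact permutation p of 1 for medium R848-BPD against saline; its summed mean was lowest after free R848, where this share was highest, so no order is read from it. *F3* was seen in 0.720%, 0.2% and 0.0717% of cells.

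Platelets carry several of these proteins, and their markers were looked for in the same sums. Of 5 platelet markers, 4 were detected in the monocyte/macrophage-like class and *Gp9* was at 0. The list summed to 107 to 417 CPM after saline, 99.6 to 435 after free R848 and 340 to 472 after medium R848-BPD. *Pf4*, itself a leading gene of macrophage clusters, made up nearly all of these sums, at 336 and 468 CPM after medium R848-BPD. *Ppbp*, *Itga2b* and *Treml1* reached at most 11.3, 1.17 and 0.376 CPM in any tumor. The part of platelet RNA in the *F13a1* and *Thbs1* levels was not tested. Hepatocyte markers, looked for because the liver is the main source of plasma clotting factors, came to 3 UMIs in all, with *Alb* at 0. The B cell markers summed to 8.80 to 32.8, 21.1 to 27.9 and 6.65 to 14.3 CPM, and the mast cell and basophil markers to 20 UMIs with *Ms4a2* at 0.

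Of a wider list of 55 further genes of the plasminogen system, coagulation and their receptors, 53 were listed and 30 were testable in the monocyte/macrophage-like class. In free R848 against saline edgeR and DESeq2 called 0 of the 30, and their median log2 fold change was -0.21 beside 0.00 over all genes. In medium R848-BPD against saline 3 were higher and 1 lower (13.3% beside 7.3% of all genes, median -0.06). Plasminogen itself (*Plg*) had 0 UMIs in the class, and tissue-type plasminogen activator (*Plat*) had 67.

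The called genes of this list described here were receptors. *Cd36*, which encodes a scavenger receptor that binds thrombospondin 1, stood at 91.4, 41.9 and 119 CPM after saline, 109, 121 and 133 after free R848, and 167 and 369 after medium R848-BPD, and rose by 1.68 (SE 0.41, adjusted p = 0.0422) against saline, which became 1.01 (adjusted p = 0.354) without medium R848-BPD replicate 2. *Itgam*, the integrin chain CD11b, which binds fibrinogen, stood at 1104, 915 and 942 CPM, then 897, 1055 and 1150.5, then 1811 and 1830.3, with no overlap of medium R848-BPD with the rest. It rose by 0.88 (SE 0.16, adjusted p = 0.0148) against saline and by 0.82 (SE 0.16, adjusted p = 0.0413, edgeR) against free R848, the only gene of the list called there, with a list median of 0.02. *Itgav*, the integrin chain of vitronectin and fibronectin receptors, stood at 95.8, 104 and 132 CPM, then 106, 102 and 89.2, then 66.4 and 53.2, and fell by 0.87 (SE 0.17, adjusted p = 0.0216) against saline. Leaving out 1 tumor at a time moved the adjusted p of *Cd36* between 0.0211 and 0.354, of *Itgav* between 0.0117 and 0.192, and of *Itgam* between 0.00995 and 0.115 against saline and between 0.0123 and 0.289 against free R848.

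Over the 8 tumors, the genes whose log2 CPM followed that of *Plau* most closely in the monocyte/macrophage-like class were *Etv3* (Pearson r 0.978), *Prr5l* (0.977) and *Cnot6l* (0.976), out of 6790 genes compared. *Etv3* stood at 198, 203 and 218 CPM after saline, 160.1, 154 and 164 after free R848, and 114 and 116 after medium R848-BPD. For *Procr* they were *Ptgr1* (0.983), *Gclc* (0.973) and *Wfdc17* (0.972). *Ptgr1* stood at 23.9, 16.6 and 28.5 CPM, then 18.5, 28.9 and 17.9, then 70.2 and 120.4. The 8 points share their libraries and treatments, and no p is given.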

How the data were processed

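Tumors from 8 mice (3 saline, 3 free R848, 2 medium R848-BPD) were profiled by Seq-Well, 1 library each. The deposited tables hold the authors' UMI counts for each gene in each cell barcode, with no normalization. The submitters' processing notes name bcl2fastq and mm10; the aligner is not given in the sources used here. Gene positions are from the GENCODE annotation of GRCm38.

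The members, the wider gene list and the markers were chosen with earlier results of these data known. Cells with 400 to 10000 genes, under 50000 UMIs and at most 15% mitochondrial UMIs were kept, 9886 of 10791 barcodes. Clustering (Seurat 5.3.0, R 4.3.3) used no counts of the members or the wider list, which left 1973 of 2000 variable genes (30 components, resolution 0.8). Cells outside the MC38-like clusters were clustered again (11 components, resolution 1.3). The cluster of the first round with the lowest UMI count per cell relative to its tumors (355 cells, median ratio 0.526 to the median of the tumor) was removed by a rule set after the clusters were seen, and its 10 leading genes held the MC38 markers *Rhox5* and *Mtap*. Clusters were named from the fixed markers. Scrublet, run through scanpy 1.11.5 at an expected rate of 0.05, marked 79 cells (0.799%) as doublets, and they were kept.

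UMI counts were summed per tumor and class (at least 10 cells), and edgeR 4.0.16 was run with filterByExpr, TMM and the quasi-likelihood test, all treatments in 1 fit, adjusted over all genes tested at 0.05. The study tested single cells; here the tumor is the replicate. DESeq2 1.42.0 was an alternative. Levels within a class are TMM-scaled CPM, and levels across classes or clusters are CPM of the unscaled sum. The fits were tested on simulated data. For shares, each cell was thinned to 1000 UMIs; intervals and the limit for 0 (3 counts) cover counting error only. The genes named are the members, the called genes of the wider list, the 3 genes most like *Plau* and *Procr* (mean log2 CPM 4 or more), and class markers; 1 called gene of the wider list is not reported here. The tumors of a group carry the same replicate numbers across groups, but over 7 same-numbered pairs the correlation of deviations from group means ran from -0.24 to 0.22, so the numbers do not pair the tumors.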

Additional observations from a re-analysis of the deposited data

How the results depend on the processing

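With 2 or 3 tumors a group, a call near the threshold can turn on 1 tumor, and among the fits that left out 1 tumor the highest counts of calls came without saline replicate 2. Of the log2 fold changes of single genes under an alternative, 561 kept their direction and their side of the threshold, 43 lost their call, 18 gained one, 4 given without a test moved by more than the spread and 13 changed direction; the cause was not tested. Among the 7 tested members, 0 calls in free R848 against saline became 5 with no filter on low counts and 0 to 3 with 1 tumor left out. The 1 call in medium R848-BPD against saline became 2 with DESeq2, 5 with no filter, 2 with poor-quality cells kept, 0 with the same number of cells per tumor (494 each), with macrophage-like cells alone or with only the 2 treatments compared, and 0 to 4 with 1 tumor left out. In the wider list, 0 calls in free R848 against saline became 5 with no filter. The 4 calls in medium R848-BPD against saline became 10 with no filter, 2 with cells whose barcode occurs in 1 library (*Itgam* and *Itgav*, an alternative chosen after seeing the data), 0 with only the 2 treatments compared, and 0 to 8 with 1 tumor left out. The 1 call between medium R848-BPD and free R848 became 3 with DESeq2, 8 with no filter, 2 with the same number of cells or only the 2 treatments compared, 0 with macrophage-like cells alone, and 0 to 3 with 1 tumor left out.

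With the replicate number as a block, the members called in medium R848-BPD against saline went from 1 to 0 and those of the wider list from 4 to 1, *Thbs1* turned to 0.48, and 1, 412 and 69 of all genes were called in the 3 contrasts (free R848 against saline, medium R848-BPD against saline, medium R848-BPD against free R848). DESeq2 called 39, 963 and 373 of all genes there, and no filter on low counts gave 543, 1762 and 932.

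These log2 fold changes turned direction. *F10* in free R848 against saline became 0.017 without saline replicate 3 (-1.15 to 0.017 with 1 tumor left out). In medium R848-BPD against saline it became -0.067 with classes gated cell by cell, and -0.42 and -0.13 without saline replicate 2 or medium R848-BPD replicate 2 (-0.42 to 0.75). *F7* in free R848 against saline became -0.13 without saline replicate 2 (-0.13 to 1.08), and *F3* between medium R848-BPD and free R848 became 0.15 without free R848 replicate 2 (-0.48 to 0.15). *Thbs1* in free R848 against saline became 0.14 with macrophage-like cells alone and 0.0093 without saline replicate 1 (-0.78 to 0.0093). In medium R848-BPD against saline it became 0.98 with macrophage-like cells alone, and 0.30, 0.24 and 0.21 without saline replicate 1, saline replicate 3 or medium R848-BPD replicate 1 (-0.49 to 0.30). *F3* between medium R848-BPD and free R848 gave no value with only these treatments compared, since it did not pass the filter.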

Other observations

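Other genes of the wider list were called in further classes by edgeR, and those named were picked out after their values were seen. In DC-like cells 3 of 18 testable genes were called in medium R848-BPD against saline (16.7%, beside 14.4% of all genes), among them *Plat*, which encodes tissue-type plasminogen activator and rose by 2.08 (adjusted p = 0.00372), and the integrin chain *Itgb2*, which fell by 1.38 (adjusted p = 0.00468). In NK-like cells 2 of 20 were called in the same contrast (10% beside 0.926%) and 1 of 20 against free R848 (5% beside 0.258%). *Serpine2*, a serpin that inhibits thrombin and urokinase, rose there by 1.70 against saline (adjusted p = 0.00130) and by 1.90 against free R848 (adjusted p = 0.00121), and *Itgb1* fell by 0.82 against saline (adjusted p = 0.00710). In the monocyte-like cluster 2 of 17 were called after free R848 against saline (11.8% beside 2.15%), *Cd36*, which fell by 1.51 (adjusted p = 0.0493), and *F5*, which fell by 1.90 (adjusted p = 0.0145). In the mixed group 4 of 18 were called in medium R848-BPD against saline (22.2% beside 8.97%). *Itgam* rose there by 1.06 (adjusted p = 0.00365), and *S100a10*, a subunit of a plasminogen receptor, fell by 1.31 (adjusted p = 0.00522), *Itgav* by 1.00 (adjusted p = 0.0345) and *Itga5* by 0.88 (adjusted p = 0.0331). As stated for the members, this contrast sets different clusters against each other. Between medium R848-BPD and free R848, 4 of 18 were called in the mixed group (22.2% beside 3.15%) and 1 of 18 in DC-like cells (5.56% beside 1.25%).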
